A study of Drosophila melanogaster with 3 samples.

Results

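The 10 genes numb, brat, mira, insc, pon, baz, par-6, aPKC, l(2)gl and pins encode core parts of the machinery that makes Drosophila neuroblasts, the neural stem cells of the fly, divide asymmetrically. They were taken by gene name from the Ensembl annotation and are 10 of 13945 protein-coding genes on the 6 chromosome arms analysed. For each gene, peaks of the DNA-binding protein B-H1 with a summit inside the gene span or within 5 kb of it were collected, and that stretch is called its window. The data are ChIP-seq peak lists from whole Drosophila melanogaster embryos, 8 to 24 h old by the source label, that carried the homeodomain transcription factor B-H1 (BarH1) fused to enhanced GFP, with an antibody to GFP used for the precipitation. The 3 biological replicates all carried this fusion and form 1 group, so no conditions were compared and no test was made. The labels name the strain B-H1-GFP, an insertion targeting B-H1, and what drives the fusion was not given in the sources used here. A separate age label disagrees with 8 to 24 h and was not used, and the control experiment to which the labels point was not analysed here. Whole embryos mix all cell types, so a peak cannot be assigned to neuroblasts.

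A neuroblast sets up an apical crescent of polarity proteins at its cortex, pushes fate determinants to the basal cortex and aligns its spindle with that axis, so that one daughter stays a neuroblast and the other, the ganglion mother cell, differentiates. The apical Par complex is made of the scaffolds Bazooka (baz) and Par-6 (par-6) and the kinase aPKC (aPKC), and Lethal giant larvae (l(2)gl) restrains that kinase. Inscuteable (insc) joins Bazooka to Partner of Inscuteable (pins), which links the cortex to spindle microtubules. Miranda (mira) and Partner of Numb (pon) are adaptors for the basal determinants Brat (brat), a translational repressor of the NHL family, and Numb (numb), an inhibitor of Notch signalling. Most of these proteins also work in sensory organ precursors and epithelia, and B-H1 itself is known from the patterning of sensory organs, eye and leg.

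Sequences are shown for the regions on which the results turn, read from the dm6 genome on the plus strand, 5′ to 3′, in lower case. Capitals mark matches to 4 motifs of 6 letters searched on both strands, namely TAATTG and TAAACG (bound by Bar class homeodomains), TAATTA (a core shared by many homeodomains) and TATCGA (the core of the element of the promoter factor DREF). The first lines are the 200 bp around the numb and brat summits shared by all 3 replicates, at chr2L:9449456-9449655 and chr2L:19165069-19165268. Next is a site of 30 bases in the shared baz region, at chrX:17178653-17178682, with its TAATTG. Then comes a region upstream of brat with a thresholded peak in replicate 2 alone, at chr2L:19131955-19132110. Last is the stretch upstream of pins, at chr3R:27582242-27582403, where ranked peaks passed the threshold without entering the thresholded lists.
numb, shared region: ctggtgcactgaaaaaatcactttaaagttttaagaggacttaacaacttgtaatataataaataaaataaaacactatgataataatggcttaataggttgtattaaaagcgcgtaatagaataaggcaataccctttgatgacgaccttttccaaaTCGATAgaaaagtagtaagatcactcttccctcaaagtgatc
brat, shared region: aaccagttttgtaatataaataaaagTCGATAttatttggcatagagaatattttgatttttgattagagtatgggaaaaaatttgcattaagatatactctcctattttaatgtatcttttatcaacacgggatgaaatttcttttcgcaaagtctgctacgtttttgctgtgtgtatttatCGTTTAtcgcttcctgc
baz, site in the shared region: taatgctagtttTAATTGtattctgctaca
brat, upstream region of replicate 2: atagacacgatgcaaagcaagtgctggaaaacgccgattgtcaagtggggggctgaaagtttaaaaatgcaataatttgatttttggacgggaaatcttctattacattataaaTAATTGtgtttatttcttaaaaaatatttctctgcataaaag
pins, upstream region: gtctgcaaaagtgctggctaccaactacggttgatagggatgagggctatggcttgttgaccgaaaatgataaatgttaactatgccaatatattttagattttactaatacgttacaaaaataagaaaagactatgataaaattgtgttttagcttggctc

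In the thresholded lists, 4 of the 10 genes (numb, brat, baz and par-6) had a region in their window where every replicate had a peak, against 20.7% of all protein-coding genes. Overlapping peaks of the replicates were joined into merged regions, and one to which every replicate contributed is called shared. By replicate, 5 of the 10 genes had a thresholded peak in replicate 1 (27.0% of all genes), 6 in replicate 2 (38.9%) and 5 in replicate 3 (29.2%). The series' conservative list, which the authors made from all replicates, had a peak at 6 of the 10 genes, against 35.5% of all genes. Each shared region at these genes was single: 4 genes, 4 regions.

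A window grows with the gene, and the 10 windows had a median of 23.2 kb, against 12.2 kb for all protein-coding genes. Of the 3 genes with windows over 30 kb (numb, brat and baz), 3 had a shared region, against 35.3% of all genes of that size. Of the 3 with windows of 15 to 30 kb (insc, aPKC and l(2)gl), 0 had one, against 26.6%. Of the 4 with windows under 15 kb (mira, pon, par-6 and pins), par-6 alone had one, against 17.9%. The genes with a shared region were thus mostly the long ones, so that gene length and this choice of genes cannot be told apart here. Counted within the gene span alone, 3 of the 10 genes (numb, brat and baz) had a shared region, against 4.78% of all genes.

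Near a promoter, 3 of the 10 genes (numb, brat and par-6) had a shared summit within 1 kb of one of their transcript start sites (TSSs), against 7.90% of all genes. For numb and brat this was an internal start site, not the first one. The fourth shared region, in baz, lay 18697 bp from the TSS of baz.

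All the windows together covered 271.598 kb and held 16 merged regions, of which 4 were shared, 3 came from 2 replicates and 9 from 1. Replicate 2 alone gave 7 of the 9 regions seen once, and over the whole genome it gave 76.5% of such regions, having the longest list. Shared regions had a density of 14.7 per Mb in these windows and 10.3 per Mb over the arms. Of the 16 regions, 25% were shared, against 33.7% of all 4085 merged regions. Thus the windows held more regions per Mb than the arms (58.9 against 30.5). The gap between 25% and 33.7% rests on 4 of 16 regions and was not tested.

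Peak height is given as a percentile, the percent of peaks of the same list whose signal, the authors' own value, was at or below that of the peak. The 4 shared regions had mean percentiles from 76.9 to 97.4, with a median of 89.5, against a median of 67.4 over all 1375 shared regions. The 9 regions seen in 1 replicate had percentiles from 8.73 to 55.6, with a median of 27.7, against 26.5 over all such regions.

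**Figure D1:**
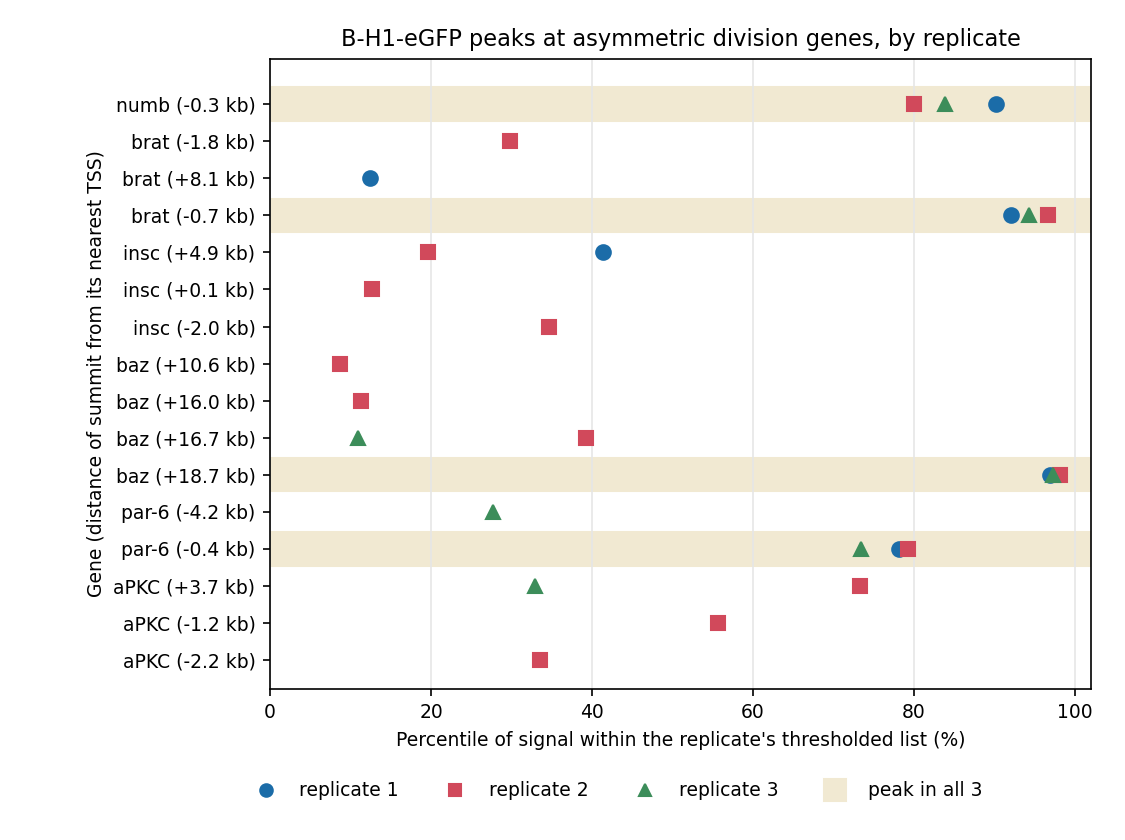
Percentile of signal (x axis, %, within each replicate's thresholded list) for the 16 merged regions in the windows of the 10 genes, 1 row per region, named by gene and by the distance of its summit from the gene's nearest TSS (kb, negative upstream). Circles, squares and triangles are replicates 1, 2 and 3, and the 4 shaded rows, with a peak in all 3, lie from 73.4% upward while the rows with 1 peak lie at 55.6% or lower.

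Among the genes of the apical Par complex, baz held the shared region with the highest signal of the 10 genes. The baz gene (FBgn0000163, X:17160006-17200728, plus strand, dm6) encodes the Par-3 scaffold. Its shared region, X:17178586-17178800, was at the 96.9th percentile in replicate 1, the 98.1st in replicate 2 and the 97.3rd in replicate 3, with a mean of 97.4 ± 0.643 (SD, n = 3). The replicates thus lay close together near the top of their lists, and the region ranked 57 of 1375 shared regions by mean percentile. The summits of the 3 replicates lay within 7 bp of each other, against a median spread of 29 bp over all shared regions.

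The baz summit fell in an exon annotated as 5′ UTR that lies far inside the gene, between the first exon and the bulk of the coding exons. Of 1375 shared summits, 97 lay in a 5′ UTR, and the baz summit was the 1 of these that was over 10 kb from any protein-coding TSS. Among the 113 shared regions more than 10 kb from a protein-coding TSS, baz ranked 2 by mean percentile. The TAATTG printed above lay 33 bp from the summits of replicates 1 and 2 and 26 bp from that of replicate 3.

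Another 3 regions lay in baz between 10605 and 16709 bp from its TSS, all low in the thresholded lists. The one at X:17176563-17176864, in the 5′ UTR, was at percentile 39.3 in replicate 2 and 11.0 in replicate 3 and had no thresholded peak in replicate 1. Those at X:17170461-17170976, in an intron, and X:17175848-17176147, in the 5′ UTR, had thresholded peaks in replicate 2 alone, at percentiles 8.73 and 11.3. The longer ranked lists had a peak of every replicate at both. Their ranked percentiles in replicates 1, 2 and 3 were 96.9, 95.7 and 94.4 at the intronic one and 79.1, 96.1 and 87.8 at the other. At both, replicates 1 and 3 were under the threshold of the −log10 global IDR (explained below), which is 2. Their values were 0.457 and 1.35 at the intronic one and lower at the other. So baz had the most regions of the 10 genes, 4, with 1 high in every replicate.

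The par-6 gene (FBgn0026192, X:17703352-17707096, plus strand) encodes the adaptor that binds aPKC. Its shared region, X:17702721-17703077, lay upstream of the gene and was at percentile 78.1 in replicate 1, 79.3 in replicate 2 and 73.4 in replicate 3, with a mean of 76.9 ± 3.12 (SD, n = 3). It ranked 485 of 1375, the lowest of the 4 shared regions, with replicate summits 481, 432 and 424 bp upstream of the par-6 TSS. The summit of replicate 2 lay in the 5′ UTR of the neighbouring gene CG8188, 104 bp from a TSS of CG8188, so that TSS is nearer than that of par-6. None of the 4 motifs was found within the 200 bp around that summit. A further region, X:17698954-17699253, 4248 bp upstream of par-6 and 374 bp upstream of chas, had a thresholded peak in replicate 3 alone, at percentile 27.7. Replicates 1 and 2 had peaks there in their longer ranked lists, at ranked percentiles 97.7 and 96.3, against 97.7 in replicate 3. Their −log10 global IDR values, 0.388 and 0.778, were under the threshold, against 2.61 in replicate 3. Just past the 5 kb limit, the next shared region lay 6.88 kb beyond the end of par-6, nearest to raskol, at a mean percentile of 62.2.

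The aPKC gene (FBgn0261854, 2R:14944458-14962969, minus strand), which encodes the kinase of the complex, had 3 regions and none shared by all replicates. An intronic region at 2R:14954634-14954963, 3672 bp downstream of one of its 4 TSSs, was at percentile 73.2 in replicate 2 and 33.0 in replicate 3. Replicate 1 had a ranked peak there with a −log10 global IDR of 0.130, far under the threshold. By signal that peak was at percentile 97.3 of its ranked list, against 99.0 in replicate 2 and 97.9 in replicate 3. The IDR, or irreproducible discovery rate, is the authors' measure of how badly a peak repeats, and every thresholded peak had a −log10 of at least 2. A pair of regions upstream of aPKC, at 2R:14964019-14964318 and 2R:14965054-14965353, had thresholded peaks in replicate 2 alone, at percentiles 55.6 and 33.5. Their summits lay in an intron of ckn, 877 and 480 bp from a TSS of ckn. Replicates 1 and 3 had ranked peaks under the threshold at both. These had −log10 global IDR values of 0.342 and 0.0655 at the first and 0.463 and 0.620 at the second region.

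The l(2)gl gene (FBgn0002121, 2L:9839-21376, minus strand), at the tip of its arm, had no thresholded peak in any replicate. Its window held 1 ranked peak in replicate 1, 27 in replicate 2 and 0 in replicate 3. The highest in each, at different places, had a −log10 global IDR of 0.0246 in replicate 1 and 1.89 in replicate 2, both under the threshold. The nearest shared region was 202 kb away, next to kis, which encodes a chromatin remodeller. In replicate 2 the window thus held 12.5 ranked peaks per 10 kb, against a median of 11.5 over all genes, and in replicates 1 and 3 it was almost bare. Windows with no ranked peak made up 8.48%, 10.2% and 4.58% of all genes in replicates 1, 2 and 3.

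Of the genes that couple polarity to the spindle, neither insc nor pins had a shared region. Thresholded peaks lay at insc in replicates 1 and 2, and at pins in no replicate. The insc gene (FBgn0011674, 2R:20821262-20836028, minus strand) had 3 regions. The one at 2R:20830911-20831231, in an intron that also lies in sktl, was at percentile 41.3 in replicate 1 and 19.6 in replicate 2 and had no thresholded peak in replicate 3. Its nearest TSS, 1336 bp away, was that of sktl, which encodes a phosphatidylinositol phosphate kinase. The other regions had thresholded peaks in replicate 2 alone, 64 bp downstream of the insc TSS at percentile 12.6 and 2036 bp upstream of it at percentile 34.6. At the upstream one, ranked peaks had −log10 global IDR values of 0.217, 2.54 and 1.85 in replicates 1, 2 and 3. Replicate 3 thus lay just under the threshold there. The nearest shared region lay 155 kb from insc.

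At pins (FBgn0040080, 3R:27582840-27586376, plus strand) the thresholded lists and the IDR values did not coincide. The stretch printed above lies between pins and the neighbouring gene wdb, which encodes a regulatory subunit of protein phosphatase 2A. A ranked peak there had a −log10 global IDR of 2.76 in replicate 1, 2.37 in replicate 2 and 1.55 in replicate 3. Its summits lay 536, 574 and 520 bp upstream of the pins TSS and 63, 25 and 79 bp upstream of a wdb TSS. Replicates 1 and 2 thus passed the threshold of 2 and replicate 3 did not, yet none of these peaks is in a thresholded list or in the conservative list.

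A further peak, in the 5′ UTR of wdb, had a −log10 global IDR of 0.409 in replicate 1, 3.88 in replicate 2 and 0.946 in replicate 3. Across the 10 windows, 31 ranked peaks passed the threshold, 28 of them were in the thresholded lists, and the 3 that were not all lay at pins. Over the arms, 68, 112 and 64 ranked peaks of replicates 1, 2 and 3 passed without being in the thresholded lists, and the step that left them out was not given in the sources used here. Ranked peaks past the threshold in all 3 replicates were found at 4 of the 10 genes, against 20.9% of all genes. None of the 4 motifs was found in the printed pins stretch.

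**Figure D2:**
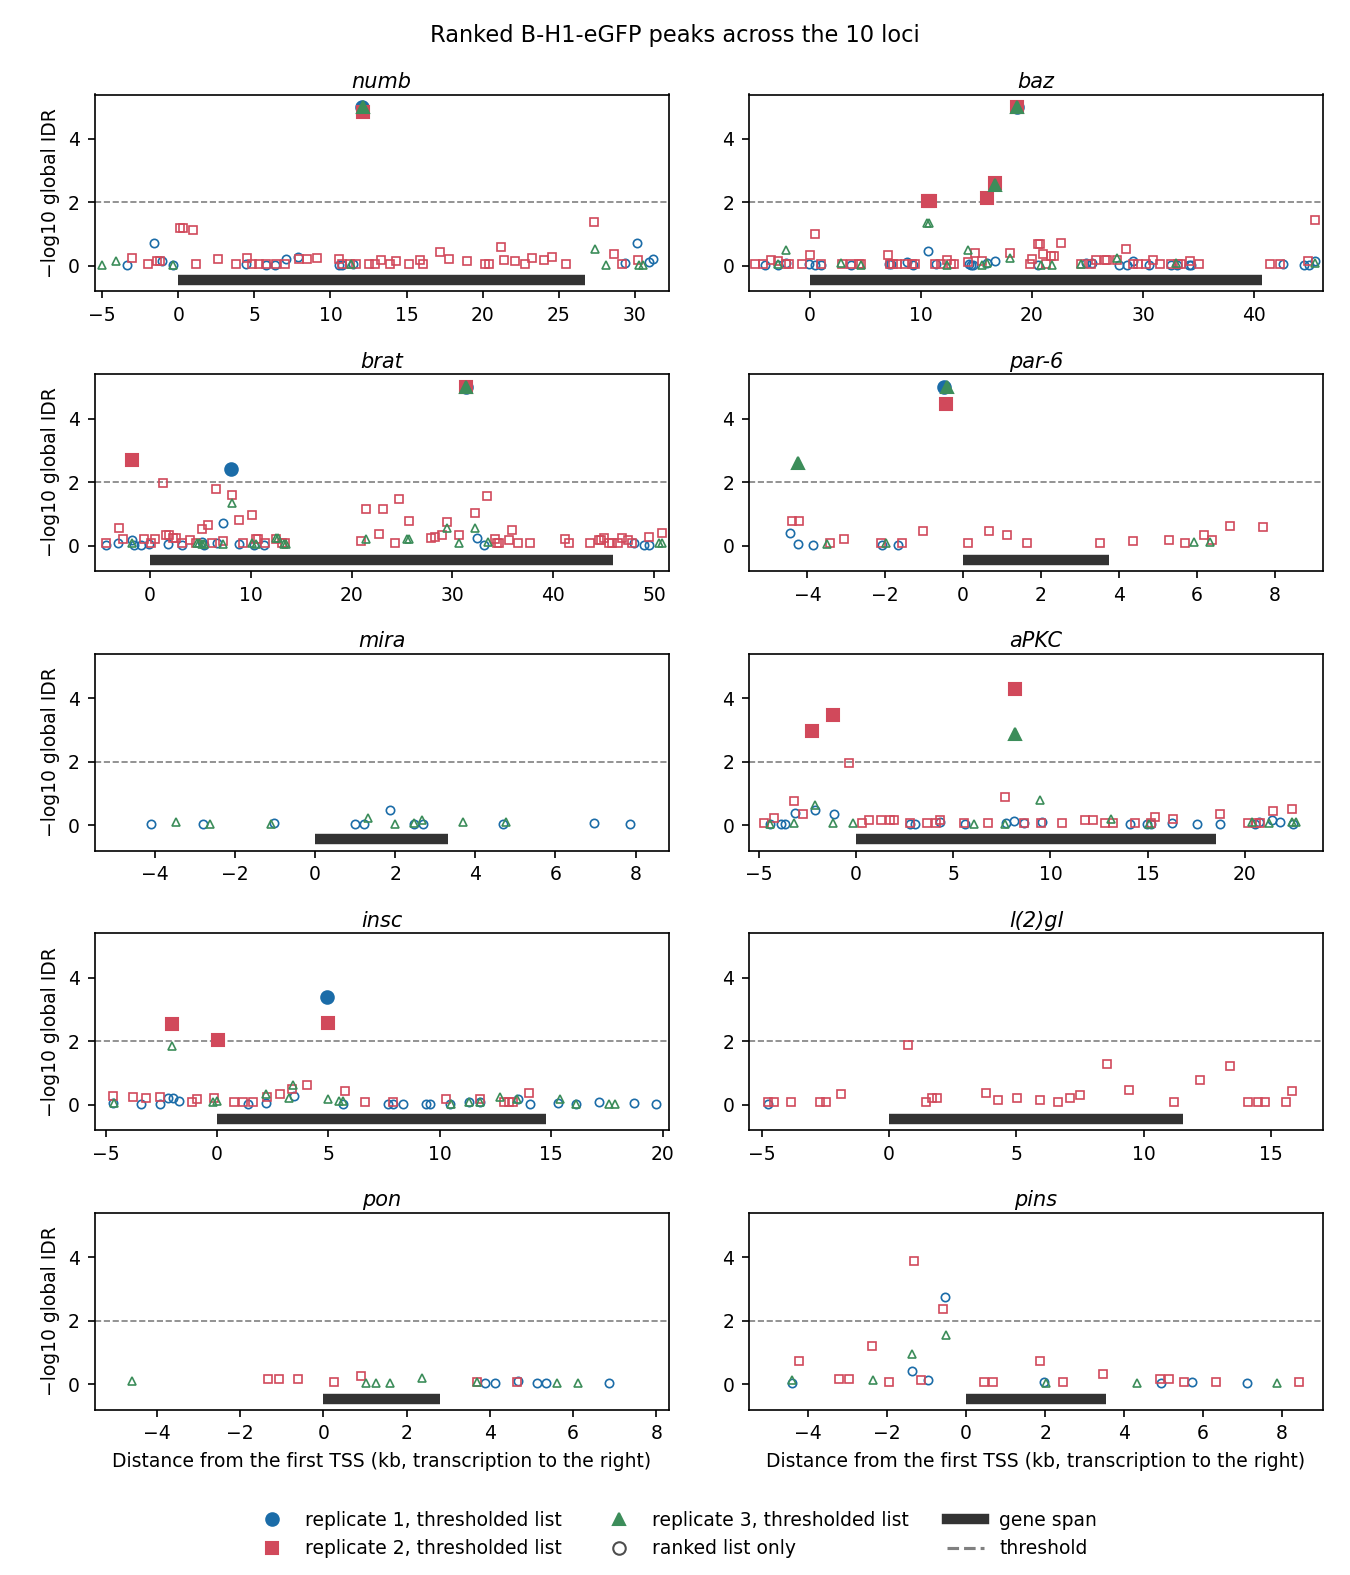
Ranked peaks in the windows of the 10 genes, by distance from the first TSS (x axis, kb, transcription to the right) and −log10 global IDR (y axis), with the gene span as a bar and the threshold of 2 dashed. Filled symbols are peaks of the thresholded lists and open ones peaks of the ranked lists alone; numb, brat, baz and par-6 each have 1 place where all 3 replicates reach 4.47 to 5, and pins has open symbols above the line.

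Of the basal adaptors, neither mira nor pon had a thresholded peak in any replicate. The mira gene (FBgn0021776, 3R:19931799-19935120, minus strand) had 11, 0 and 9 ranked peaks in replicates 1, 2 and 3. The highest in each was at percentile 86.7 of the ranked list of replicate 1 and 86.4 of that of replicate 3, with −log10 global IDR values of 0.462 and 0.231. These lay at different places, with summits at 3R:19933255 and 3R:19933793. Replicate 2, with the longest thresholded list, thus had no ranked peak at mira. Its nearest ranked peaks lay 20.2 kb from the gene on the side of lower coordinates and 7.64 kb on the other. The gap thus reached beyond the mira window, and its cause was not tested. The nearest shared region lay 22.8 kb away, next to RhoGAP92B.

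The pon gene (FBgn0025739, X:4636318-4639112, plus strand) had 6, 7 and 8 ranked peaks in replicates 1, 2 and 3, and its highest were at ranked percentiles 74.4, 48.0 and 72.1. Their mean, 64.8 ± 14.6 (SD, n = 3), was at or above that of 1.60% of the 11339 genes with a ranked peak in every replicate. All replicates were thus low at pon, with the highest peak at a different place in each. The nearest shared region lay 27.9 kb away, next to CG3009.

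Both determinants had a shared region in an intron, just upstream of an internal TSS. The numb gene (FBgn0002973, 2L:9437469-9464184, plus strand) had 1 region, 2L:9449468-9449768, at percentile 90.2 in replicate 1, 80.0 in replicate 2 and 83.8 in replicate 3, with a mean of 84.7 ± 5.17 (SD, n = 3). Replicate 1 was the highest here, and the region ranked 323 of 1375. The summits lay 274, 212 and 211 bp upstream of the internal TSS at 2L:9449830, a spread of 63 bp, and 17.8% of all shared regions spread over 60 bp or more. The TCGATA printed in capitals, a TATCGA on the minus strand, covers the summits of replicates 2 and 3 and lies 58 bp from that of replicate 1.

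The conservative list had a peak at the same place in numb, at its 88.0th percentile. It also had a peak 630 bp past the 3′ end of numb, at percentile 5.65, where no replicate had a thresholded peak. Replicates 2 and 3 had ranked peaks there, with −log10 global IDR values of 1.37 and 0.548. This was the 1 of 16 conservative peaks in the windows that met no thresholded peak of a replicate, and 4 of the 16 lay at the shared regions.

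The brat gene (FBgn0010300, 2L:19133816-19179758, plus strand) had 3 regions. Its shared region, 2L:19165064-19165259, was at percentile 92.0 in replicate 1, 96.6 in replicate 2 and 94.3 in replicate 3, with a mean of 94.3 ± 2.32 (SD, n = 3). It ranked 123 of 1375, with all replicates high. Its summits lay 702, 698 and 692 bp upstream of the last of the 3 brat TSSs, at 2L:19165867, a spread of 10 bp, and 17.3% of all shared regions spread over 10 bp or less. The region was also narrow, at 196 bp against a median of 322 bp for shared regions.

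The printed brat sequence holds a TATCGA 65 to 75 bp and a TAAACG 77 to 87 bp from the summits, on opposite sides. The other brat regions were low in the thresholded lists, each with a thresholded peak of 1 replicate. The region at 2L:19131861-19132160 was at percentile 29.8 in replicate 2 and lay 57 bp upstream of AsnRS, an asparaginyl-tRNA synthetase gene, and 1805 bp upstream of brat. The printed part of it holds a TAATTG 58 bp from the summit. A TATCGA match at 2L:19131952-19131957 is cut by the start of the printed stretch, which leaves out the 5′ UTR of AsnRS. The region at 2L:19141743-19142042, in the first part of the brat span, was at percentile 12.4 in replicate 1. Replicates 2 and 3 had ranked peaks under the threshold there, with −log10 global IDR values of 1.60 and 1.35. At the region upstream of AsnRS, those of replicates 1 and 3 had values of 0.169 and 0.0903.

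Motifs were counted in the 200 bp around each summit. TAATTG was in 1 of the 4 shared regions of these genes (baz), against 19.9% of all 1375 shared regions. TAAACG was in 1 (brat), against 8.07%, and TAATTA in 0, against 19.2%. TATCGA was in 2 (numb and brat), against 10.3%. With 4 regions these counts are descriptions, and a match in this window is not a binding site shown by these data. The 4 windows had GC contents of 31.0% at numb, 29.5% at brat, 28.0% at baz and 36.5% at par-6, against a median of 34.0% over shared regions.

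Over all 16 regions, the nearest protein-coding TSS was that of the gene itself in 9 and of another gene in 7. The 7 were at AsnRS and Polr1D for brat, sktl for insc, chas and CG8188 for par-6, and ckn for both upstream regions of aPKC. Inside the spans of the 10 genes, 6 summits lay in introns and 4 in 5′ UTRs, with 0 in coding sequence or 3′ UTR, and 6 lay outside the spans. The 5′ UTR summits were those of baz, apart from the insc one 64 bp from its TSS. A summit within 1 kb of the gene's own TSS was found in 4 of the 16 regions. Of all 1375 shared summits, 50.8% lay in introns and 7.05% in 5′ UTRs of any gene. Within 1 kb of any protein-coding TSS lay 58.3% of them. These shares cover shared regions only, so they are not the same measure as the counts over 16 regions.

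The ranked lists, which hold 72939 to 101546 peaks on the arms, gave an order for the genes without a threshold. Taking the ranked peak of highest signal in each window, the mean percentile over replicates was 99.9 ± 0.0110 at baz, 99.8 ± 0.0241 at brat, 99.5 ± 0.281 at numb and 99.3 ± 0.214 at par-6 (SD, n = 3). It was 98.1 ± 0.868 at aPKC, 97.7 ± 1.03 at insc and 97.6 ± 1.53 at pins, 3 genes that differ by less than the spread of their replicates, as do numb and par-6. The share of all genes at or below these means was 98.2% at baz, 96.6% at brat, 90.8% at numb, 87.8% at par-6, 72.7% at aPKC, 69.5% at insc and 68.7% at pins. So 7 of the 8 genes with a ranked peak in every replicate lay above the median of all genes, 93.6, and pon lay below it. This leaves out mira and l(2)gl. At mira the highest peaks were at 86.7 and 86.4 in replicates 1 and 3, against medians over genes of 95.2 and 93.3. At l(2)gl they were at 47.6 in replicate 1, against 95.2, and 95.8 in replicate 2, against 95.5. A longer window gives more peaks to choose from. Among genes of the same window class, the share at or below was 98.1% for baz, 95.8% for brat, 87.7% for numb, 89.1% for par-6, 67.9% for aPKC, 63.7% for insc, 72.1% for pins and 1.98% for pon.

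**Figure D3:**
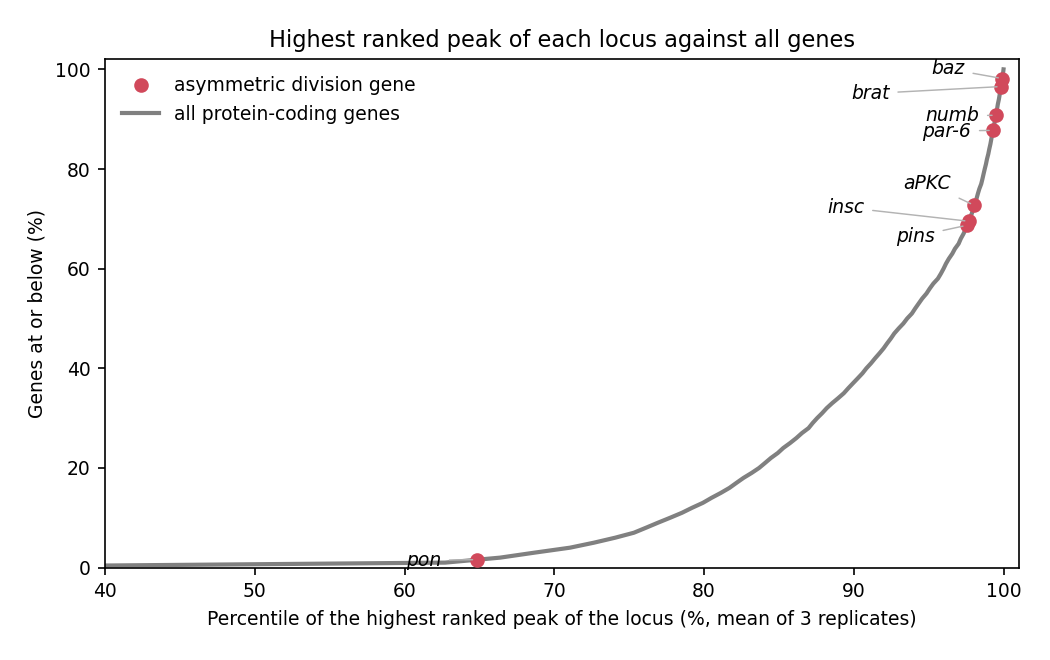
Mean over 3 replicates of the ranked percentile of the highest peak in each window (x axis, %, starting at 40) against the percent of the 11339 genes at or below that value (y axis). The line is all protein-coding genes with a ranked peak in each replicate and the dots are the 8 asymmetric division genes with such values, of which 7 lie at 68.7% or above and pon at 1.60%.

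Other genes of asymmetric division were taken as 4 lists with 46 genes. A shared region lay in the window of 10 of them (21.7%), against 20.7% of all genes. Of 8 cargoes and daughter cell fate genes, 4 had one, of 15 polarity and spindle orientation partners 5, of 16 neuroblast transcription factors 1, and of 7 mitotic kinases and phosphatases 0. A peak of the conservative list lay at 12 of the 15 polarity and spindle orientation partners (80%) and at 22 of all 46 (47.8%), against 35.5% of all genes. It was found at 6 of the 8 cargo and fate genes (75%), but at 2 of the 7 mitotic kinases and phosphatases (28.6%) and 2 of the 16 neuroblast transcription factors (12.5%). Within the gene span alone, 6 of the 46 had a shared region (13.0%), against 4.78% of all genes. These shares were not tested, and the lists were not matched on gene length.

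**Figure D4:**
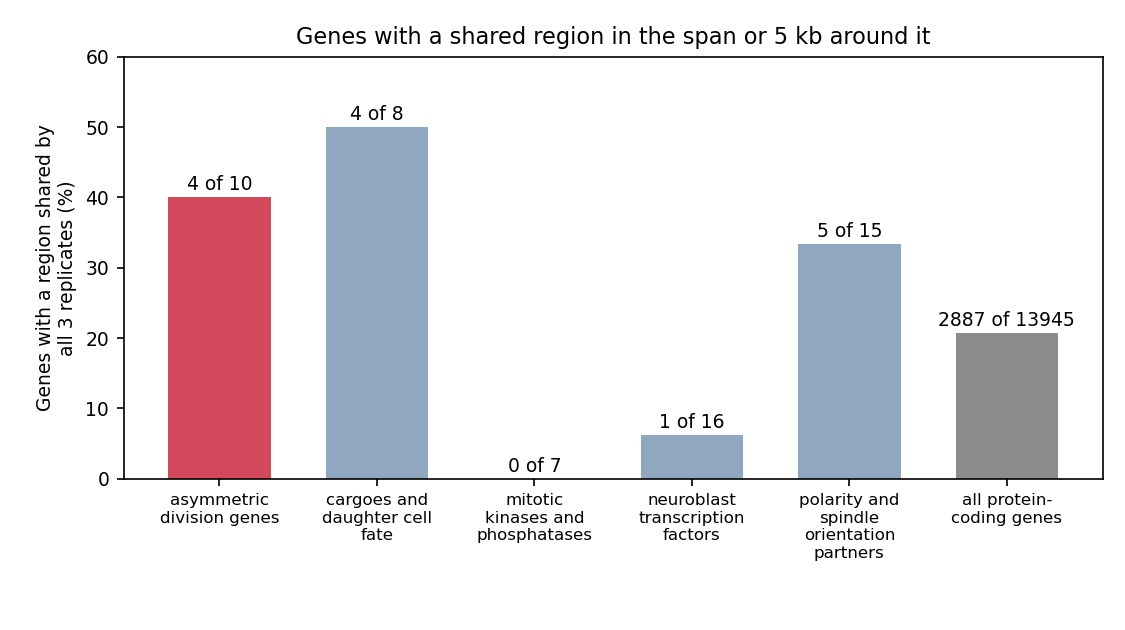
Percent of genes (y axis, from 0) with a region shared by all 3 replicates in the gene span or 5 kb around it, for the 10 asymmetric division genes, 4 lists of related genes and all protein-coding genes, with counts above the bars. The 10 genes stand at 40%, the 4 lists from 0 to 50% and all genes at 20.7%.

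Among the cargo and fate genes, l(2)gd1, which regulates endosomal traffic of Notch, had a shared summit 110 bp upstream of its TSS, at percentile 98.2 in replicate 1, 97.8 in replicate 2 and 98.3 in replicate 3. The baz region was lower, with a mean of 97.4 ± 0.643 against 98.1 ± 0.254 at l(2)gd1 (SD, n = 3), a difference about as large as the spread of the baz replicates. At pros, the transcription factor carried by Miranda, the shared region averaged 85.0 ± 4.16 and lay 73 bp upstream of the neighbouring gene mgr. The Notch receptor gene N had one in an intron, 27656 bp from its TSS, at 84.7 ± 3.70. Nak, which encodes a kinase that binds Numb, had one in an intron at 70.1 ± 21.9 and one 52 bp upstream of Bhmt at 36.5 ± 14.2.

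Among the polarity and spindle partners, the highest shared region was in the window of the G protein subunit gene Gbeta13F, at 97.4 ± 2.02, and lay 154 bp upstream of Gapdh2, a glycolytic enzyme gene. The tumour suppressor gene dlg1 had regions at 59.7 ± 26.4 and 41.4 ± 28.3. The G protein subunit genes Ggamma1 and Galphai had one at 31.6 ± 8.25 and one at 30.6 ± 22.9, and Rap1, a small GTPase gene, had one at 29.5 ± 24.1, 2 bp from its TSS (SD, n = 3 in each). The neuroblast transcription factor gene grh had a shared region in an intron at 69.4 ± 10.3.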

How the data were processed

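A thresholded and a ranked peak list per replicate, and lists of the whole series, were deposited on dm6 per the file headers. The deposited signal of a peak (column 7) is the authors' value on a scale that is not stated, so it was used as a percentile within a list. The deposited −log10 of the global IDR was at least 2 (an IDR of at most 0.01) for every thresholded peak. Each replicate's lists also draw on 1 file common to all, so they are not fully independent. The aligner, peak caller and read depth were not given in the sources used here. No counting interval is therefore given. In the series' files, 32 columns of per-sample values matched no replicate by name and stayed unused.

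Peaks on 6 arms were merged where they overlapped by at least 1 bp, and the summit was that of the replicate of highest percentile. Genes came from Ensembl release 115 and sequence from Release 6, with Python 3.11.15, pandas 2.3.3 and numpy 2.4.6. The procedure was checked on simulated peaks. Text names the 10 genes, the genes whose TSS is nearest to a shared summit in their windows, and at most 4 genes per related list with values, by mean percentile; other neighbours, and Rap1 as the last of 5, were named after their values were seen. Genes and lists were chosen with earlier results of these data known. Replicates are biological per the labels.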

Additional observations from a re-analysis of the deposited data

How the results depend on the processing

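The count of 4 genes with a shared region (20.7% of all genes) was 4 with windows of 2 kb (13.8% of all genes) or 10 kb (30.2%), with an overlap of 50% of the shorter peak (20.7%), with peaks at or above the median signal (13.5%) and with ranked peaks past the threshold (20.9%), so its contrast with all genes moved while the count did not. It was 3 within the gene span alone (4.78%), where par-6 was lost, 3 when a region counted only for the nearest TSS, and 6 by the conservative list (35.5%). It was 5 without replicate 1 (24.3% of all genes), where aPKC was added, and 5 without replicate 3 (23.1%), where insc was added. Without replicate 2 it was 4 (22.7%). Genes with a shared summit within 1 kb of a TSS numbered 3 (7.90% of all genes). They were 2 within 500 bp (6.63%) and 3 within 2 kb (10.02%). Regions at the 10 loci numbered 4, were 4 to 6 without 1 replicate, and 16 by the conservative list, which lists peaks not shared by every replicate. They were 3 within the gene span alone, 4 with windows of 2 kb and 5 with windows of 10 kb. Of the 46 related genes, 10 had a shared region (21.7%, against 20.7% of all genes), 6 within the span alone (13.0%, against 4.78%), 22 by the conservative list (47.8%, against 35.5%) and 12 to 15 without 1 replicate (26.1% to 32.6%, against 22.7% to 24.3%). TAAACG and TATCGA were each in 0 of the 4 regions at 100 bp (4.36% and 4.51% of all shared regions), and TATCGA in 3 at 400 bp (21.0%). At numb the window was centred on the summit of replicate 1, 58 bp from the TATCGA that covers the summits of replicates 2 and 3. With 3 replicates of 1 group and no read depth, a peak missing from 1 list is not shown to be absent. Since 7 of the 9 regions seen once come from replicate 2, how far its longer list reflects depth was not tested.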
